A study of Mus musculus with 24 samples.

Results

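The 10 genes described here are markers of vascular endothelial cells, the cells that line blood vessels: Pecam1, Cdh5, Emcn, Robo4, Esam, Cldn5, Erg, Egfl7, Plvap and Nos3. They were chosen by symbol from 24016 genes in the deposited table, with the transcript of the highest mean RPKM (read count divided by transcript length in kb and by the library total in M) for each symbol, and all 10 were present and passed the filter on low values. Their levels were followed in hindlimb muscle of mice of C57BL/6 background on day 7 after the femoral artery had been tied in 1 hindlimb. The 4 groups, each of 6 poly(A) RNA libraries, were ischemic gastrocnemius of type 2 diabetic mice, ischemic gastrocnemius of control mice, normoxic adductor of type 2 diabetic mice and normoxic adductor of control mice. The ligation is given for all groups, and the adductor lies upstream of the ischemic calf. How the mice became diabetic is not stated, and no label ties a library to an animal, so p-values measure the spread between these libraries. Muscle and ischemia cannot be told apart, since each muscle was sampled in 1 state.

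Endothelial cells hold vessels closed through adherens and tight junctions, pass fluid and solutes through the cell by caveolae and fenestrae, and set vessel tone by making nitric oxide. In muscle most of them form capillaries around the fibres, and after ligation of the femoral artery collateral arteries widen in the upper leg while capillaries sprout in the ischemic calf. Transcription factors of the ETS family, ERG among them, maintain many of the genes that define this cell type.

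On RPKM, 9 of the 10 genes in diabetic mice and 8 in control mice passed the test as higher in ischemic gastrocnemius than in adductor. Of all genes tested, 48.1% and 54.4% did so too. After each library was scaled by its median ratio to the others, the picture narrowed to Plvap, which exceeded the adductor in both mouse groups by more than any other member, and to Emcn in control mice. With mouse group and number as a block, Emcn in diabetic mice and Pecam1 in control mice also passed on the scaled values. No label gives this pairing of libraries. A term for the library set, described below, also gave 3 called members in control mice on the scaled values. In the fit of all libraries with neither block nor term, the core junction genes Cdh5, Pecam1, Esam and Cldn5, the receptor gene Robo4, the transcription factor gene Erg and the nitric oxide synthase gene Nos3 did not pass the test on the scaled values. None of the 10 genes passed the test between diabetic and control mice in either muscle.

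Library totals were 7.13 to 15.6 M reads. A split that no label gives was seen in the data and used to form library sets: Gapdh lay at 677 to 1757 RPKM in the 14 libraries numbered 1 to 3 of control mice and 1 to 4 of diabetic mice, and at 0.365 to 13.7 RPKM in the other 10. Among these 10, Gapdh lay at 0.365 to 0.831 RPKM in control and at 3.71 to 13.7 RPKM in diabetic libraries. The source of this further split was not tested. The first set was deeper, with 12 to 15.6 M reads against 7.13 to 11.8 M reads in the second. Values within the sets are given beside the pooled ones for some members. On deposited RPKM the sets did not overlap in some group for every member but Pecam1 and Robo4. Diabetic gastrocnemius 2 and control gastrocnemius 3 stood apart from the other gastrocnemius libraries: a list of 9 macrophage genes summed to 468 and 331 RPKM in them, against 985 to 1556 RPKM in the other 10, and a list of 7 platelet genes to 21.0 and 25.9 RPKM against 74.0 to 183 RPKM. Size factors were 1.03 to 1.58 in diabetic gastrocnemius, 1.14 to 1.64 in control gastrocnemius, 0.746 to 0.848 in diabetic adductor and 0.684 to 0.889 in control adductor. Size factors of the muscles did not overlap, so RPKM and scaled RPKM answer different questions: the first is a gene's share of all reads, the second its level relative to a typical gene.

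Transcripts of endothelial genes were present in all samples, which does not test how far they came from endothelial cells alone. None of the 10 genes was at 0 in any library, and a further list of 23 endothelial genes, such as Tie1, Kdr and Flt1, summed to 256 to 417 RPKM in diabetic gastrocnemius, 283 to 396 RPKM in control gastrocnemius, 117 to 214 RPKM in diabetic adductor and 144 to 198 RPKM in control adductor, with no gene at 0. In bulk tissue, fewer endothelial cells and less RNA per endothelial cell cannot be told apart.

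Promoter sequences of 5 of the 10 genes (Cldn5, Emcn, Robo4, Erg and Egfl7) were found in RefSeq on build GRCm38.p6. The 250 bases before the start site are shown for the 3 genes with 1 start site listed, Emcn, Robo4 and Cldn5, to set the letters of ETS-type motifs beside the values below. Capitals mark AGGAAG on either strand (CTTCCT on the strand shown), an ETS-type core; CGGAAG was searched in the same way and was found in none of the 3.
Emcn, chr3:137340828-137341077, plus strand: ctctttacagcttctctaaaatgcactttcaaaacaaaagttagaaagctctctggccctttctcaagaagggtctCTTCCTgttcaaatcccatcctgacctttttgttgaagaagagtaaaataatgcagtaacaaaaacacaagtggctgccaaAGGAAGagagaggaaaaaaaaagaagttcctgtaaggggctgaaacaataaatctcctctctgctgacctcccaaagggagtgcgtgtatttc
Robo4, chr9:37401722-37401971, plus strand: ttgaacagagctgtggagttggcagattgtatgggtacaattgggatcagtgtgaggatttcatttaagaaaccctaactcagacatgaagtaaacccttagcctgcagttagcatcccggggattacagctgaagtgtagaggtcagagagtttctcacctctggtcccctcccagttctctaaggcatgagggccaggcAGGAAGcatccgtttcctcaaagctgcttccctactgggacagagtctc
Cldn5, chr16:18776597-18776846, plus strand: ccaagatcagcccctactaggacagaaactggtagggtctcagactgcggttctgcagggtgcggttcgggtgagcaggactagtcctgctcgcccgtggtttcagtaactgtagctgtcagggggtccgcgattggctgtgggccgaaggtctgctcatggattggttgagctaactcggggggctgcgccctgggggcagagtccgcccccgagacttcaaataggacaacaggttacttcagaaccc
Emcn held 2 matches, whose first bases lay 174 and 93 bases before the start site, Robo4 held 1 at 49 bases before it, and Cldn5 held none. Of the genes not shown, Egfl7 held 3, 1 and 0 matches at its 3 start sites and Erg 0, 0 and 1. A link between matches and values was not tested, and Plvap was not among the 5 genes with a sequence. AGGAAG is common: it stood in the same window of 29.5% of 32851 promoters, and either letter string in 39.2%. A match describes the letters only.

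RPKM is per length, but the order of genes also depended on the library set. Over both sets Cdh5 had the highest mean in every group, at 36.3 ± 10.4 RPKM in diabetic gastrocnemius, 42.5 ± 15.6 RPKM in control gastrocnemius, 20.6 ± 4.91 RPKM in diabetic adductor and 19.8 ± 4.48 RPKM in control adductor (SD, n = 6 each). In the second set alone its median was below that of Pecam1 in diabetic gastrocnemius (27.7 against 32.6 RPKM) and control gastrocnemius (30.4 against 33.0 RPKM). It was below that of Cldn5 in control adductor (16.6 against 21.5 RPKM). Relative to the mean of the 10 genes, members with transcripts of 2015 bases or less had higher medians in the second set. Those with transcripts of 2213 bases or more had lower ones, and the cause was not tested. Cdh5 encodes VE-cadherin, the adhesion protein of endothelial adherens junctions. Nos3 and Erg were the least abundant in every group, at means of 1.96 to 3.91 RPKM. The place of Plvap changed with the muscle: it ranked 3 of 10 in both gastrocnemius groups and 6 of 10 in both adductor groups. Most neighbours in these orders overlapped in their ranges; the pairs whose ranges did not were Robo4 above Erg in diabetic gastrocnemius, Emcn above Robo4 in control gastrocnemius, and Esam above Plvap and Robo4 above Nos3 in control adductor. Erg rested on 18 to 225 reads per library and Nos3 on 60 to 330, so their values carry more counting error than those of Cdh5, with 583 to 4017.

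**Figure D1:**
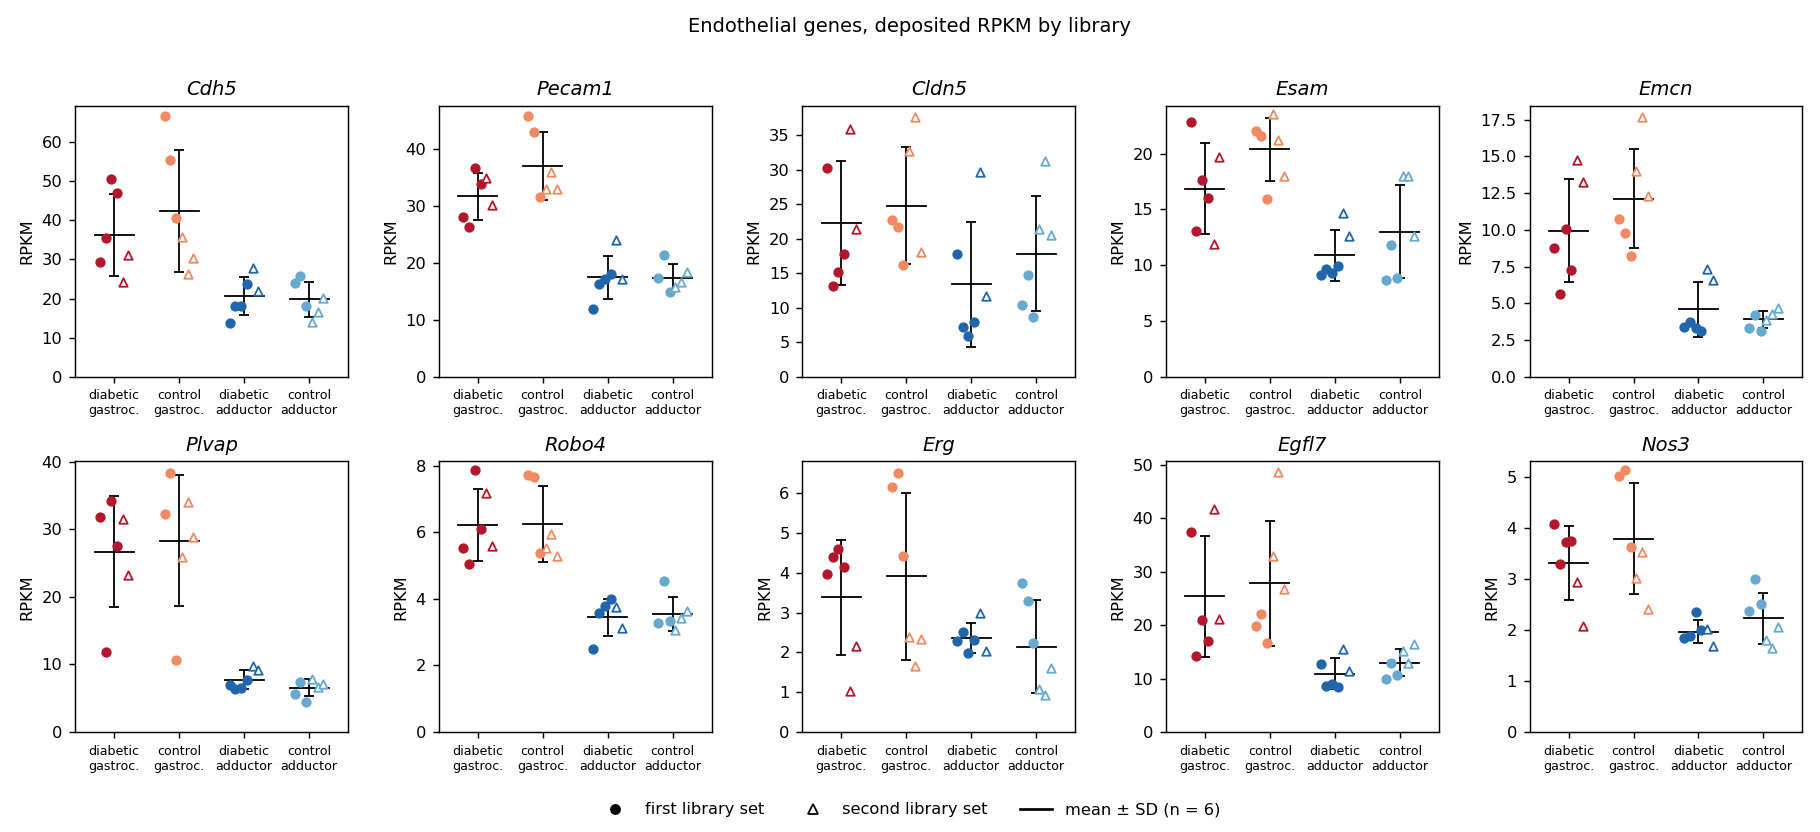
Deposited RPKM (vertical axes, each from 0) of the 10 genes in every library of the 4 groups, with circles for the first library set, open triangles for the second, and mean ± SD of 6 libraries as bars. Plvap lay at 10.6 to 38.3 RPKM in gastrocnemius and at 4.48 to 9.77 RPKM in adductor, and the triangles of Erg lie low in 3 of the 4 groups.

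The junction genes come first. Cdh5 (chr8:106625525-106668402, plus strand; all transcript positions are mm9) had 24.1, 33.3 and 50.6 RPKM as lowest, median and highest in diabetic gastrocnemius, against 13.8, 20.1 and 27.7 RPKM in diabetic adductor. In control mice the same 3 values were 26.2, 38.2 and 66.6 RPKM in gastrocnemius, against 14.1, 19.1 and 25.8 RPKM in adductor. All 6 control gastrocnemius libraries lay above every control adductor library, and in diabetic mice 5 of 6 did. The log2 difference was 0.79 ± 0.23 (SE) in diabetic mice, with a limma adjusted p of 0.0058, and 1.04 ± 0.23 in control mice, with a limma adjusted p of 0.00049. On scaled values the differences were 0.12 ± 0.17 in diabetic mice and 0.25 ± 0.17 in control mice, with limma adjusted p of 0.58 and 0.23. In control gastrocnemius the library sets did not overlap, at 40.7 to 66.6 RPKM in the first and 26.2 to 35.7 RPKM in the second. They overlapped in the other groups.

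Pecam1 (chr11:106515532-106576595, minus strand) encodes CD31, an adhesion protein of endothelial cell borders that is also found on platelets and leukocytes. It had 26.4, 32.1 and 36.8 RPKM in diabetic gastrocnemius, against 12, 17.3 and 24 RPKM in diabetic adductor. In control mice it had 31.6, 34.5 and 46.0 RPKM in gastrocnemius, against 14.9, 17.0 and 21.5 RPKM in adductor. The muscles did not overlap in either mouse group. The log2 difference was 0.86 ± 0.15 in diabetic mice (limma adjusted p = 5.18e-05) and 1.06 ± 0.15 in control mice (limma adjusted p = 3.31e-06). Scaled values still did not overlap in control mice, at 25.2 to 31.7 in gastrocnemius and 21.7 to 24.2 in adductor, a log2 difference of 0.28 ± 0.14 with a limma adjusted p of 0.089, and 0.029 with mouse group and number as a block. In diabetic mice the scaled difference was 0.20 ± 0.14 (limma adjusted p = 0.23). Pecam1 had the narrowest range of all members relative to the mean of the 10, 0.57 on the log2 scale over the 24 libraries.

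Esam (chr9:37335674-37345904, plus strand) encodes an adhesion molecule of endothelial tight junctions. Its 3 values were 11.9, 16.8 and 22.8 RPKM in diabetic gastrocnemius, against 9.08, 9.77 and 14.6 RPKM in diabetic adductor, and 15.9, 21.4 and 23.5 RPKM in control gastrocnemius, against 8.70, 12.2 and 18 RPKM in control adductor. The groups overlapped in both comparisons. Esam was higher in gastrocnemius by 0.60 ± 0.20 in diabetic mice (limma adjusted p = 0.012) and by 0.68 ± 0.20 in control mice (limma adjusted p = 0.0046), and after scaling the differences were -0.05 ± 0.19 and -0.10 ± 0.19, with limma adjusted p of 0.83 and 0.69.

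Cldn5 (chr16:18776940-18778355, plus strand) encodes the main claudin of endothelial tight junctions. It had 13.2, 19.6 and 35.9 RPKM in diabetic gastrocnemius, against 5.95, 9.83 and 29.7 RPKM in diabetic adductor, and 16.1, 22.2 and 37.6 RPKM in control gastrocnemius, against 8.62, 17.7 and 31.2 RPKM in control adductor. All of these groups overlapped widely. The log2 difference of 0.85 ± 0.36 in diabetic mice had a limma adjusted p of 0.047; it passed in 9 of 24 fits that each left out 1 library, with adjusted p of 0.0072 to 0.13. In control mice the difference was 0.53 ± 0.36 (limma adjusted p = 0.20, and 0.0091 with mouse group and number as a block). Scaled, the differences were 0.19 ± 0.38 in diabetic mice and -0.25 ± 0.38 in control mice (limma adjusted p = 0.70 and 0.61).

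Cldn5 also moved with the library sets. In the second set it had 21.4 and 35.9 RPKM in diabetic gastrocnemius, 18.1 to 37.6 RPKM in control gastrocnemius, 11.7 and 29.7 RPKM in diabetic adductor and 20.6 to 31.2 RPKM in control adductor. In the first set the ranges were 13.2 to 30.2, 16.1 to 22.7, 5.95 to 17.8 and 8.62 to 14.8 RPKM in the same order of groups. In control adductor the sets did not overlap. Relative to the mean of the 10 genes in the same library, Cldn5 ran from -0.04 to 2.00 on the log2 scale, with medians of 1.28 in the second set and 0.38 in the first.

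Plvap and Emcn encode surface proteins by which capillary and venous endothelium is often recognised. Plvap (chr8:74021652-74035668, minus strand) forms the diaphragms of fenestrae, caveolae and transendothelial channels. It had 11.8, 29.5 and 34.1 RPKM in diabetic gastrocnemius, against 6.36, 7.30 and 9.77 RPKM in diabetic adductor. In control mice it had 10.6, 30.5 and 38.3 RPKM in gastrocnemius, against 4.48, 6.95 and 7.83 RPKM in adductor. Every gastrocnemius library lay above every adductor library of the same mouse group. The lowest gastrocnemius values belonged to diabetic gastrocnemius 2 and control gastrocnemius 3, the libraries low in macrophage and platelet transcripts. The next lowest were 23.2 RPKM in diabetic and 25.8 RPKM in control gastrocnemius. The further endothelial list was also lowest in these libraries, summing to 256 and 283 RPKM against 300 to 417 RPKM in the other gastrocnemius libraries. Plvap was 3.17-fold higher in gastrocnemius of diabetic mice (log2 difference 1.66 ± 0.26, limma adjusted p = 1.21e-05) and 3.86-fold higher in gastrocnemius of control mice (1.95 ± 0.26, limma adjusted p = 1.31e-06).

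Scaling left Plvap 2.02-fold higher in gastrocnemius of diabetic mice (log2 difference 1.01 ± 0.24, limma adjusted p = 0.00091) and 2.27-fold higher in gastrocnemius of control mice (1.18 ± 0.24, limma adjusted p = 0.00019). The scaled values were 10.1, 20.8 and 30.7 in diabetic gastrocnemius, against 7.92, 9.26 and 11.5 in diabetic adductor, and 9.32, 21.1 and 29.9 in control gastrocnemius, against 6.55, 8.59 and 10.8 in control adductor. In each mouse group 5 of 6 gastrocnemius libraries lay above every adductor library. Without diabetic gastrocnemius 2 and control gastrocnemius 3, the scaled differences were 1.20 ± 0.16 in diabetic mice and 1.39 ± 0.16 in control mice. Within the library sets they were 0.97 and 1.09 in diabetic mice (first and second set) and 1.09 and 1.28 in control mice. Plvap passed the test in both mouse groups in every fit that left out 1 library, on both scales.

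Emcn (chr3:137004042-137094033, plus strand) encodes endomucin, a sialomucin of venous and capillary endothelium. It had 5.64, 9.40 and 14.7 RPKM in diabetic gastrocnemius, against 3.13, 3.56 and 7.36 RPKM in diabetic adductor. In control mice it had 8.24, 11.5 and 17.7 RPKM in gastrocnemius, against 3.13, 4.02 and 4.66 RPKM in adductor. The muscles did not overlap in control mice, and in diabetic mice 4 of 6 gastrocnemius libraries lay above every adductor library. Emcn was higher in gastrocnemius by 1.04 ± 0.23 in diabetic mice (limma adjusted p = 0.00057) and by 1.49 ± 0.23 in control mice (limma adjusted p = 8.56e-06).

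On scaled values Emcn was 1.68-fold higher in gastrocnemius of control mice (log2 difference 0.75 ± 0.26, limma adjusted p = 0.017), where the groups did not overlap, at 5.97 to 15.5 in gastrocnemius and 4.33 to 5.83 in adductor. Without control gastrocnemius 5, the library with the highest value, the limma adjusted p was 0.054. In diabetic mice the scaled difference was 0.42 ± 0.26 (limma adjusted p = 0.18, and 0.012 with mouse group and number as a block). Within the sets, the scaled differences were 0.34 and 0.58 in diabetic mice (first and second set) and 0.50 and 1.01 in control mice. The difference between these muscle effects, diabetic minus control, was -0.33 ± 0.37 and did not pass the test. Emcn was higher in the second set than in the first in diabetic gastrocnemius (13.2 and 14.7 RPKM against 5.64 to 10.1 RPKM), control gastrocnemius (12.3 to 17.7 against 8.24 to 10.7 RPKM) and diabetic adductor (6.61 and 7.36 against 3.13 to 3.72 RPKM), with no overlap between the sets, and in control adductor the sets overlapped (3.86 to 4.66 against 3.13 to 4.18 RPKM).

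The signalling genes are Robo4, Egfl7 and Nos3. Robo4 (chr9:37209631-37221607, plus strand) encodes an endothelial receptor of the ROBO family that limits vessel leak. It had 5.05, 5.84 and 7.86 RPKM in diabetic gastrocnemius, against 2.49, 3.66 and 4.0 RPKM in diabetic adductor, and 5.30, 5.73 and 7.72 RPKM in control gastrocnemius, against 3.05, 3.39 and 4.53 RPKM in control adductor. The muscles did not overlap in either mouse group. Its log2 differences were 0.76 ± 0.14 in diabetic mice (limma adjusted p = 8.76e-05) and 0.73 ± 0.14 in control mice (limma adjusted p = 0.00011). On scaled values Robo4 had medians of 4.59 in diabetic gastrocnemius, 4.69 in control gastrocnemius, 4.44 in diabetic adductor and 4.51 in control adductor, with differences of 0.15 ± 0.12 in diabetic mice and 0.01 ± 0.12 in control mice (limma adjusted p = 0.32 and 0.95). The 95% interval of the scaled difference in control mice ran from -0.25 to 0.27.

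Egfl7 (chr2:26442150-26448202, plus strand) encodes a secreted protein of the vessel matrix, and the microRNA gene Mir126a lies inside it (chr2:26446877-26446949). Egfl7 had 14.2, 21.1 and 41.7 RPKM in diabetic gastrocnemius, against 8.47, 10.2 and 15.6 RPKM in diabetic adductor, and 16.6, 24.4 and 48.6 RPKM in control gastrocnemius, against 9.88, 12.9 and 16.5 RPKM in control adductor. The muscles were apart in control mice and overlapped in diabetic mice. It was higher in gastrocnemius by 1.10 ± 0.26 in diabetic mice (limma adjusted p = 0.0010) and by 1.0 ± 0.26 in control mice (limma adjusted p = 0.0021), and by 0.45 ± 0.30 and 0.22 ± 0.30 after scaling (limma adjusted p = 0.22 and 0.57). In control gastrocnemius Egfl7 lay at 16.6 to 22.1 RPKM in the first library set and 26.7 to 48.6 RPKM in the second. In the other groups the sets overlapped. The 4 Egfl7 transcripts in the table had means of 17.0 to 19.3 RPKM and correlated at 0.99 or above over the 24 libraries, so they carry almost the same reads.

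The mature microRNA from this locus, miR-126-3p in endothelial cells, is shown with its seed (bases 2 to 8) in capitals, as RefSeq gives it on GRCm38.p6 at chr2:26591402-26591423, plus strand.
mmu-miR-126a-3p: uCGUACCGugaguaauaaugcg
Poly(A) libraries do not measure mature microRNAs, and the Mir126a row held 0 to 5 reads per library, so no difference was detectable at this depth. No strand setting was given in the file headers, so reads of Egfl7, its hosted microRNA and any antisense transcript could not be told apart. Of 4 genes listed as related to this microRNA, 2 were higher on scaled values in gastrocnemius of each mouse group and none lower. Over all genes 27.4% were higher in diabetic mice and 28.4% in control mice. The 2 genes were its targets Spred1 and Pik3r2. Spred1 was higher by 1.21 ± 0.22 in diabetic mice and 1.30 ± 0.22 in control mice, and Pik3r2 by 0.82 ± 0.15 and 0.78 ± 0.15. These differences had limma adjusted p of 0.00018 or less. Any part of the microRNA in them was not tested.

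Nos3 (chr5:23870637-23890292, plus strand) encodes endothelial nitric oxide synthase. It had 2.08, 3.51 and 4.08 RPKM in diabetic gastrocnemius, against 1.69, 1.94 and 2.36 RPKM in diabetic adductor, and 2.41, 3.57 and 5.13 RPKM in control gastrocnemius, against 1.65, 2.22 and 3.0 RPKM in control adductor. The groups overlapped. It was higher in gastrocnemius by 0.61 ± 0.17 in diabetic mice (limma adjusted p = 0.0042) and by 0.63 ± 0.17 in control mice (limma adjusted p = 0.0029), and after scaling the differences were 0.04 ± 0.15 and -0.05 ± 0.15 (limma adjusted p = 0.82 and 0.80), with 95% intervals from -0.26 to 0.35 in diabetic mice and from -0.35 to 0.25 in control mice.

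Erg (chr16:95581811-95751972, minus strand), the ETS transcription factor gene of the list, had 1.04, 4.05 and 4.59 RPKM in diabetic gastrocnemius, against 1.99, 2.30 and 3.0 RPKM in diabetic adductor. In control mice it had 1.65, 3.40 and 6.51 RPKM in gastrocnemius, against 0.925, 1.93 and 3.73 RPKM in adductor. Both pairs of groups overlapped. The log2 differences were 0.33 ± 0.33 in diabetic mice (limma adjusted p = 0.40) and 0.71 ± 0.33 in control mice (limma adjusted p = 0.064, and 0.0090 with mouse group and number as a block), and after scaling -0.24 ± 0.28 and 0.05 ± 0.28 (limma adjusted p = 0.49 and 0.90).

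Erg also moved with the library sets. In the second set it had 1.04 and 2.15 RPKM in diabetic gastrocnemius, 1.65 to 2.38 RPKM in control gastrocnemius, 2.04 and 3.0 RPKM in diabetic adductor and 0.925 to 1.61 RPKM in control adductor. In the first set it had 3.95 to 4.59 RPKM in diabetic gastrocnemius, 4.42 to 6.51 RPKM in control gastrocnemius, 1.99 to 2.51 RPKM in diabetic adductor and 2.25 to 3.73 RPKM in control adductor. The sets did not overlap in any group but diabetic adductor. Relative to the mean of the 10 genes Erg had a median of -2.28 in the second set and -1.32 in the first, and its range of 2.40 on the log2 scale was the widest of the 10. Within the first set alone, Erg was higher in gastrocnemius on deposited RPKM in both mouse groups, by 0.78 ± 0.17 in diabetic mice (limma adjusted p = 0.0016) and 0.79 ± 0.20 in control mice (limma adjusted p = 0.0044). In the second set the differences on deposited RPKM were -0.56 ± 0.32 in diabetic mice, with 2 libraries in each group, and 0.63 ± 0.26 in control mice (limma adjusted p = 0.17 and 0.059). On scaled values the first set gave 0.08 ± 0.13 in diabetic mice and -0.0047 ± 0.15 in control mice (limma adjusted p = 0.63 and 0.98). The second set gave -0.88 ± 0.27 and 0.10 ± 0.22 on scaled values (limma adjusted p = 0.026 and 0.73).

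Counted over the 10 genes on deposited RPKM, 9 were higher in gastrocnemius of diabetic mice (all but Erg) and 8 in gastrocnemius of control mice (all but Cldn5 and Erg), where 48.1% and 54.4% of the 12382 genes tested were higher. Over all genes 5958 were higher and 1093 lower in diabetic mice, and 6730 higher and 1077 lower in control mice; scaling changed this split to 3396 and 3247, and to 3520 and 3279. The median log2 differences of the 10 were 0.82 in diabetic mice and 0.86 in control mice, against 0.55 and 0.66 over all genes tested. The muscles did not overlap for 3 of the 10 in diabetic mice (Pecam1, Plvap and Robo4; background 29% of genes) and for 6 of the 10 in control mice (Cdh5, Egfl7, Emcn, Pecam1, Plvap and Robo4; background 33.3%). On scaled values 1 of 10 was higher in diabetic mice (Plvap) and 2 of 10 in control mice (Plvap and Emcn), with none lower, where 27.4% and 28.4% of all genes were higher and 26.2% and 26.5% lower. The member medians were then 0.17 and 0.13, against -0.04 and -0.02 over all genes. Scaled ranges of the muscles were apart for 0 of 10 genes in diabetic mice (background 16.5% higher) and for 2 of 10 in control mice (Emcn and Pecam1; background 15.9% higher).

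**Figure D2:**
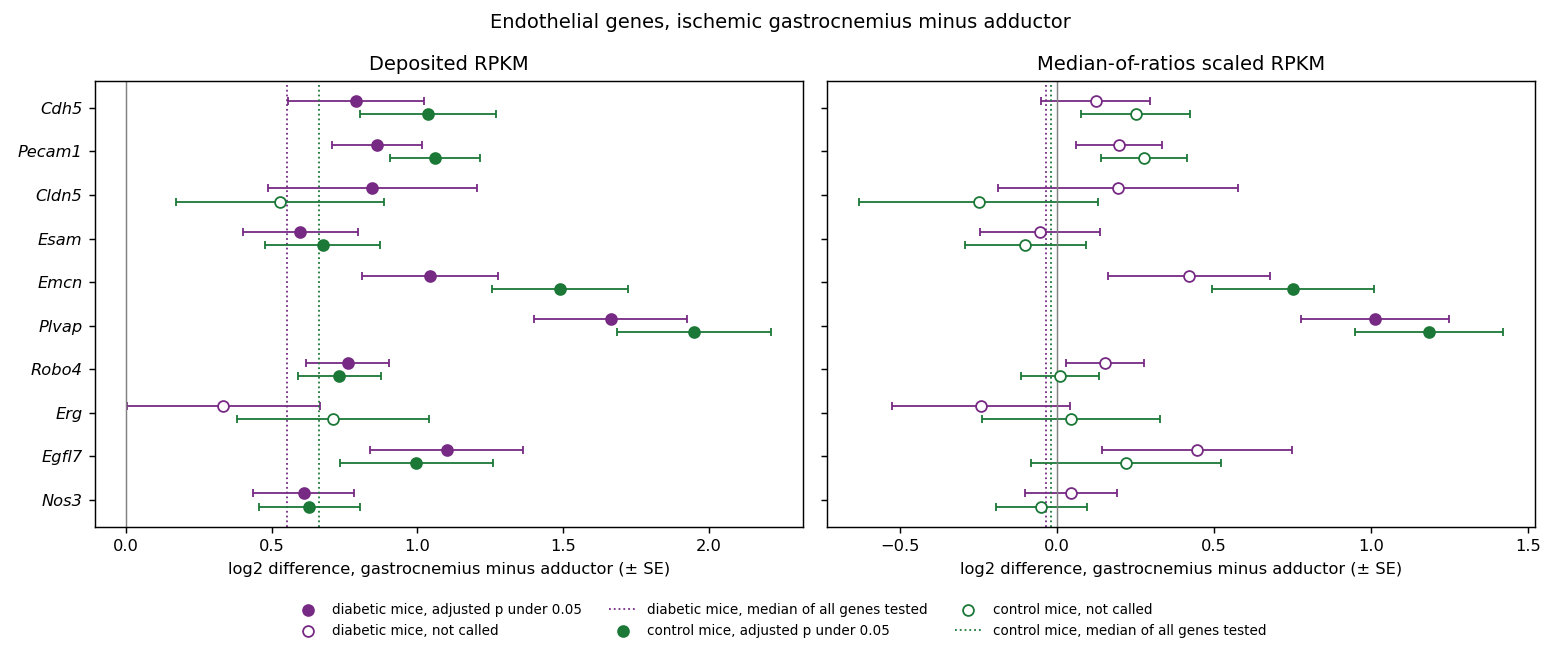
Log2 difference of gastrocnemius minus adductor with its SE (horizontal axis) for each of the 10 genes, in diabetic and in control mice, on deposited RPKM (left) and on scaled RPKM (right); filled points passed the limma test and dotted lines mark the median of all genes tested. On the left 9 and 8 points are filled, and on the right only Plvap in both mouse groups and Emcn in control mice.

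**Figure D3:**
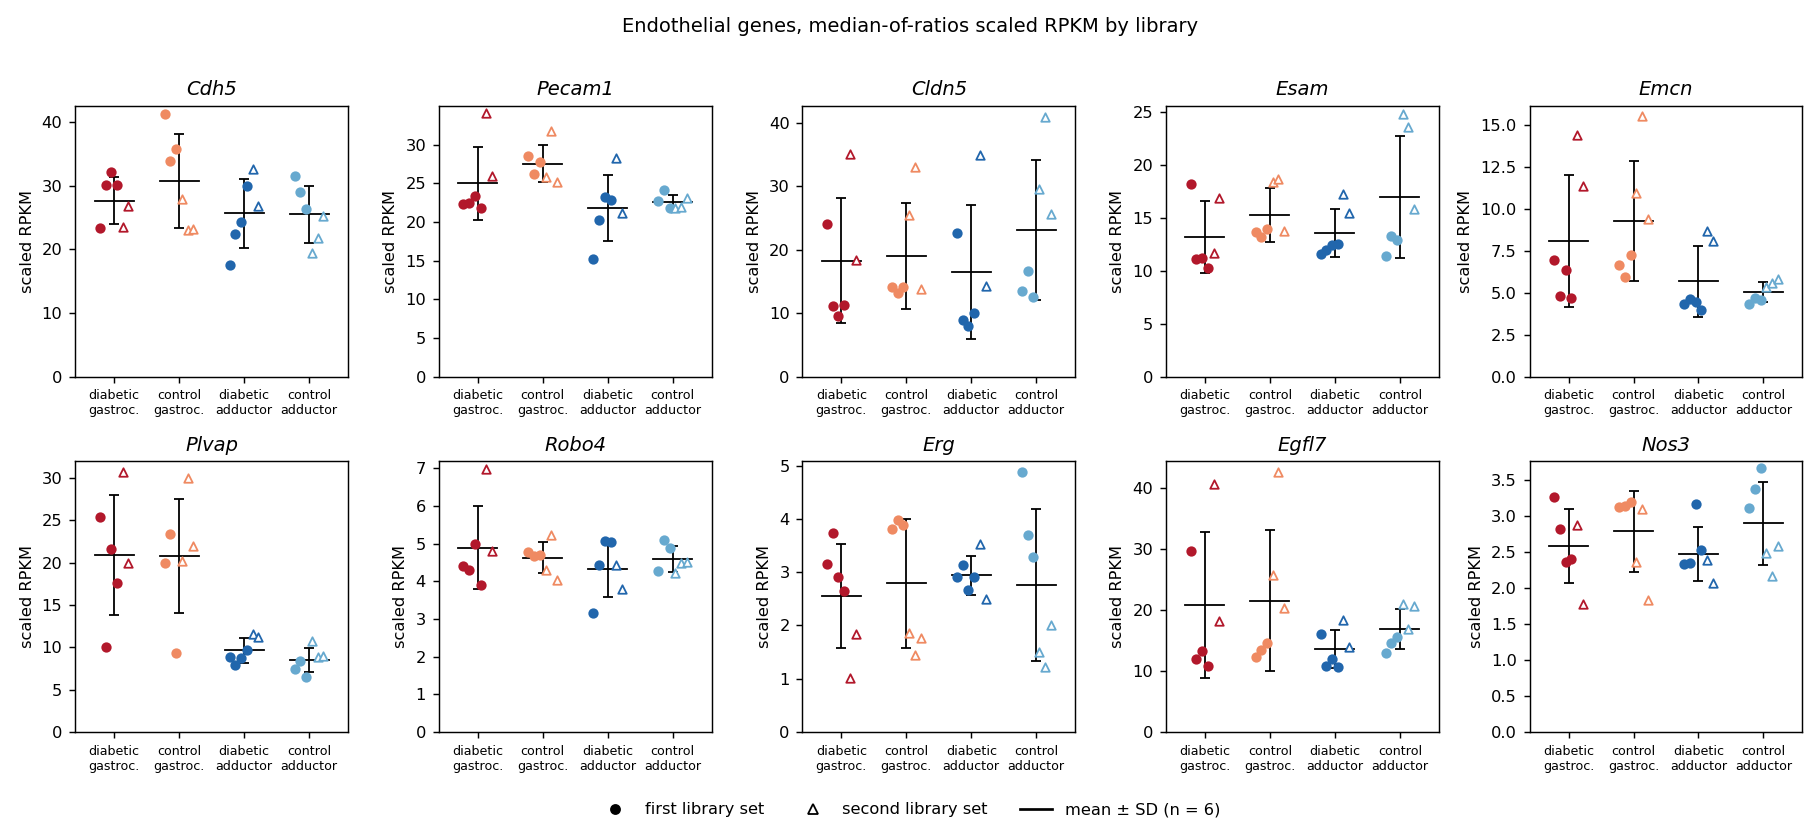
Scaled RPKM (vertical axes, each from 0) of the 10 genes in every library of the 4 groups, with circles for the first library set, open triangles for the second, and mean ± SD of 6 libraries as bars. Robo4 lies at group medians of 4.44 to 4.69, while Plvap has 20.8 and 21.1 in gastrocnemius against 9.26 and 8.59 in adductor.

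Markers of some other cell types differed between the muscles as well. Over all genes 27.4% were higher and 26.2% lower on scaled values in gastrocnemius of diabetic mice. In control mice the shares were 28.4% and 26.5%. On scaled values 8 of 9 macrophage genes were higher in gastrocnemius of diabetic mice and 9 of 9 in control mice, and 4 and 5 of 6 fibroblast genes were higher. Of 10 muscle fibre genes 6 were lower in gastrocnemius of diabetic mice and 7 in control mice. The summed RPKM of the macrophage list ran from 468 to 1556 in diabetic gastrocnemius, 331 to 1336 in control gastrocnemius, 76.5 to 129 in diabetic adductor and 43.7 to 241 in control adductor, and that of the muscle fibre list from 20178 to 61584, 15438 to 59340, 44971 to 91507 and 55654 to 98044. Platelets also carry Pecam1 and Esam: their 7 genes summed to 21.0 to 120 RPKM in diabetic gastrocnemius, 25.9 to 183 RPKM in control gastrocnemius, 7.19 to 23.7 RPKM in diabetic adductor and 7.65 to 24.2 RPKM in control adductor. Of the 10 smooth muscle and pericyte genes, 3 were higher and 4 lower in gastrocnemius of each mouse group, of the 4 lymphatic genes tested 1 was higher (Pdpn) and 1 lower (Lyve1) in each, both platelet genes tested (Pf4 and Gp1bb) were higher in each, and of 3 erythroid genes tested 1 was lower in diabetic mice and none in control mice. The share of smooth muscle and pericyte genes that were higher, and both lymphatic shares, were near those of all genes. The part of these cell types in the differences of the 10 genes was not tested.

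Ratios within the list were taken on log2(RPKM + 0.5), where the scale of a library cancels except through the 0.5 added. Relative to the mean of the 10 genes in the same library, Plvap was higher in gastrocnemius by 0.80 in diabetic mice and by 0.97 in control mice on the log2 scale. In diabetic mice the ratio ran from 0.20 to 1.17 in gastrocnemius and from -0.02 to 0.27 in adductor, and in control mice from -0.13 to 1.14 in gastrocnemius and from -0.40 to 0.12 in adductor, with 5 of 6 gastrocnemius libraries above every adductor library in each. Within the sets the difference was 0.75 and 0.90 in diabetic mice (first and second set) and 0.90 and 1.04 in control mice. Emcn moved in the same direction relative to the list, by 0.18 in diabetic mice and 0.51 in control mice, where 5 of 6 gastrocnemius libraries lay above every adductor library. Erg (-0.53 in diabetic mice, -0.27 in control mice), Cldn5 (-0.01 and -0.45), Nos3 (-0.25 and -0.35), Esam (-0.26 and -0.31) and Robo4 (-0.10 and -0.25) went the other way. Since each ratio contains the mean of all 10, a rise of Plvap lowers the others, and these values are a description with no test.

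Between diabetic and control mice, none of the 10 genes passed the test in gastrocnemius, where 0.00808% of all genes did, or in adductor, where 0.0323% did, on either scale. At an unadjusted p under 0.05 the limma count of members was also 0 in both muscles, against 156 and 339 of all genes in gastrocnemius and adductor, and limma-voom on recovered reads called 0 members too. In gastrocnemius all 10 differences were below 0 on deposited RPKM, from -0.30 (Emcn) to -0.01 (Robo4), with a median of -0.17 against -0.06 over all genes; on scaled values 8 of 10 were below 0, from -0.23 to 0.06. In adductor they ran from -0.49 (Cldn5) to 0.23 (Plvap), with 6 of 10 below 0. Diabetic and control libraries overlapped for every member in both muscles on deposited RPKM; over all genes, diabetic libraries lay wholly above control libraries for 0.0323% in gastrocnemius and 0.194% in adductor, and wholly below for 0.0323% and 0.0242%.

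The intervals of these differences leave room for moderate changes in either direction. For Cdh5 the 95% interval of diabetic minus control was -0.68 to 0.28 in gastrocnemius and -0.43 to 0.53 in adductor, for Nos3 it was -0.51 to 0.20 and -0.49 to 0.22, and for Cldn5, the most variable, -0.92 to 0.56 and -1.24 to 0.25 (log2 of deposited RPKM). The sets also pulled apart in adductor. Cdh5 differed by -0.30 ± 0.25 in the first set and 0.54 ± 0.21 in the second, Emcn by -0.05 ± 0.19 and 0.66 ± 0.18, and Erg by -0.35 ± 0.19 and 0.83 ± 0.29, none past the test after adjustment. Within the second set Gapdh also separated diabetic from control libraries. Diabetes and that further split cannot be told apart there. In gastrocnemius the sets gave the same sign for Cdh5 (-0.42 and -0.15), Pecam1 (-0.35 and -0.06), Emcn (-0.28 and -0.05), Erg (-0.36 and -0.36), Esam (-0.20 and -0.43), Nos3 (-0.26 and -0.21) and Cldn5 (-0.14 and -0.02), and opposite signs for Plvap, Robo4 and Egfl7. The difference of the diabetes effects between the muscles did not pass the test for any member, and 0% of all genes passed it; at an unadjusted p under 0.05 the limma counts were 0 members and 154 genes.

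**Figure D4:**
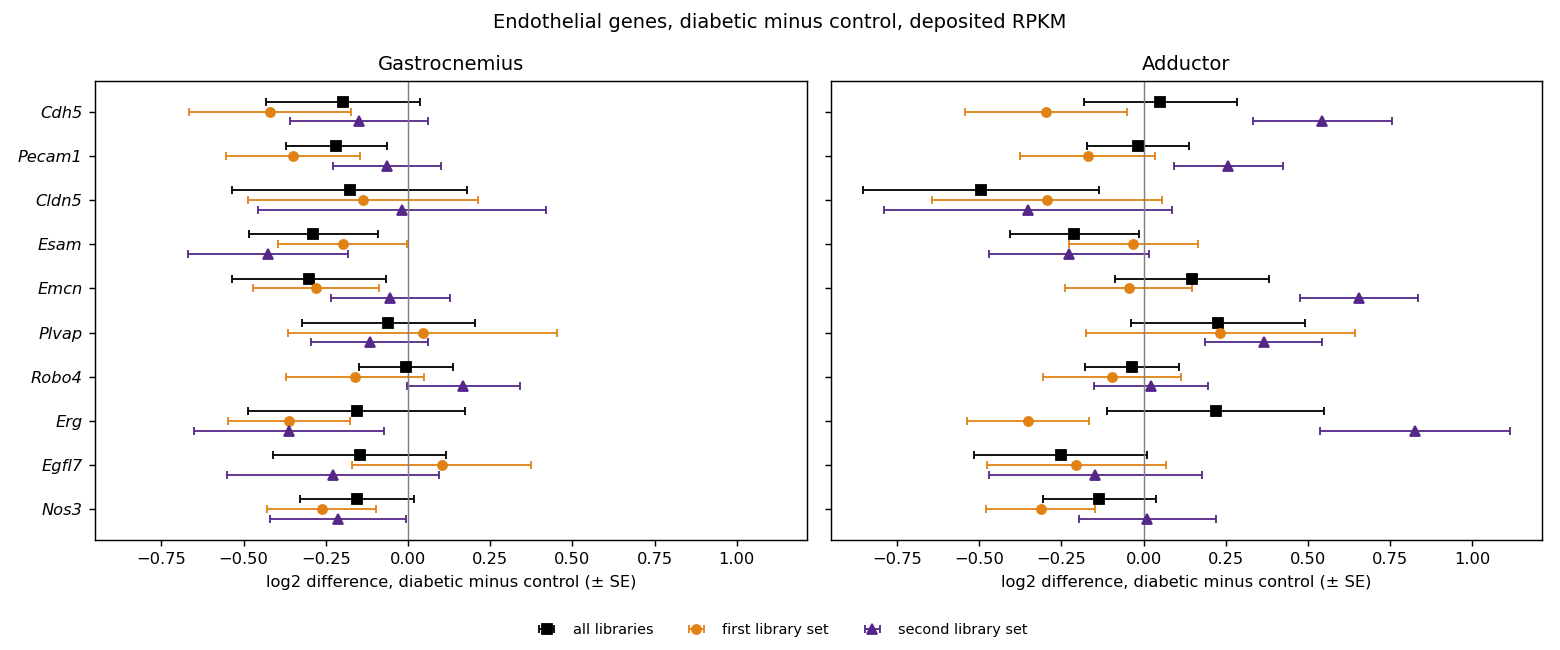
Log2 difference of diabetic minus control mice with its SE (horizontal axis) for each of the 10 genes on deposited RPKM, in gastrocnemius (left) and adductor (right), over all libraries (squares) and within the first (circles) and second (triangles) library set. In adductor the set values of Cdh5, Emcn and Erg lie on opposite sides of 0, at -0.30 and 0.54, -0.05 and 0.66, and -0.35 and 0.83.

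Further endothelial genes were read from lists on scaled values, to be set against 27.4% of all genes higher and 26.2% lower in diabetic mice and 28.4% higher and 26.5% lower in control mice. All lists, here and below, were chosen with earlier results of these data known, so their counts are a description. Of the 23 other endothelial genes 4 were higher and 3 lower in gastrocnemius of diabetic mice (median -0.20), and 6 higher and 4 lower in control mice (median -0.08), shares at or below those of all genes. Cd93, a C-type lectin receptor of endothelium that monocytes also carry, was 27.0 ± 5.41 in diabetic gastrocnemius, against 10.4 ± 1.59 in diabetic adductor, and 29.2 ± 7.74 in control gastrocnemius, against 9.45 ± 3.69 in control adductor, log2 differences of 1.33 and 1.62 (limma adjusted p = 1.74e-05 and 1.68e-06). Tm4sf1, a tetraspanin-like surface protein, was higher by 0.88 and 1.26, and Cd34, a sialomucin also found on progenitor cells, by 0.71 and 0.69. Lower in both mouse groups were Flt1, a receptor of vascular endothelial growth factor (-1.21 in diabetic and -1.37 in control mice), Ptprb, the phosphatase that acts on VE-cadherin (-1.01 and -0.95), and Gpr116, an adhesion receptor (-1.0 and -0.95). These 3 did not pass the test on deposited RPKM and were named after their values were seen.

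Genes of vessel types split. Of 8 genes typical of capillary endothelium, 4 were lower in gastrocnemius of both mouse groups and none higher, with medians of -1.09 in diabetic mice and -1.12 in control mice. These 4 were Aqp1, a water channel (29.8 ± 16.1 in diabetic gastrocnemius, against 112 ± 27.6 in diabetic adductor, and 28.2 ± 17.2 in control gastrocnemius, against 117 ± 15.2 in control adductor), Cd36, a fatty acid transporter (33.1 ± 8.54 against 82.7 ± 27.3 and 27.8 ± 5.12 against 75.4 ± 14.1 in the same order), Car4, a carbonic anhydrase of the capillary surface (log2 differences -1.55 and -1.88), and Timp4, a metalloproteinase inhibitor (-2.02 and -2.56). Muscle fibres and other cells also express Cd36, Timp4 and Aqp1, and their part was not tested. Of 5 genes of activated endothelium 4 were higher in both mouse groups: Vcam1 and Icam1, adhesion molecules for leukocytes (2.09 and 1.14 in diabetic mice, 2.14 and 1.22 in control mice), Cd44, a hyaluronan receptor (2.65 and 2.98), and Ccl2, a monocyte chemokine (1.94 and 2.96). Macrophages and fibroblasts express these genes as well. Selp, P-selectin, was lower in diabetic mice (-0.60, limma adjusted p = 0.017) and had -0.25 in control mice (limma adjusted p = 0.33).

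Of 8 tip cell genes 5 were higher in each mouse group, with medians of 1.46 in diabetic mice and 1.36 in control mice, among them Cxcr4 (3.18 and 2.66) and Lamb1 (2.27 and 2.11), the chemokine receptor and a laminin chain. Apln and Pgf, encoding secreted vessel growth factors, were higher by 1.89 and 1.40 in diabetic mice and by 2.26 and 1.17 in control mice. The macrophage and fibroblast lists were also higher, with medians of 2.59 and 2.02 in diabetic mice and 2.50 and 2.01 in control mice. The part of these cells in the tip cell counts was not tested. Arterial genes gave 2 and 3 higher of 8 in diabetic and control mice, with Unc5b (1.17 and 1.61) and Gja4 (0.53 and 0.60) in both and none lower; the share higher in diabetic mice was near that of all genes. Venous genes gave 3 higher and 1 lower of 7 in diabetic mice and 3 higher and 2 lower in control mice, with Vcam1, Aplnr (1.46 and 1.83) and Ephb4 (0.61 and 0.54) higher in both.

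**Figure D5:**
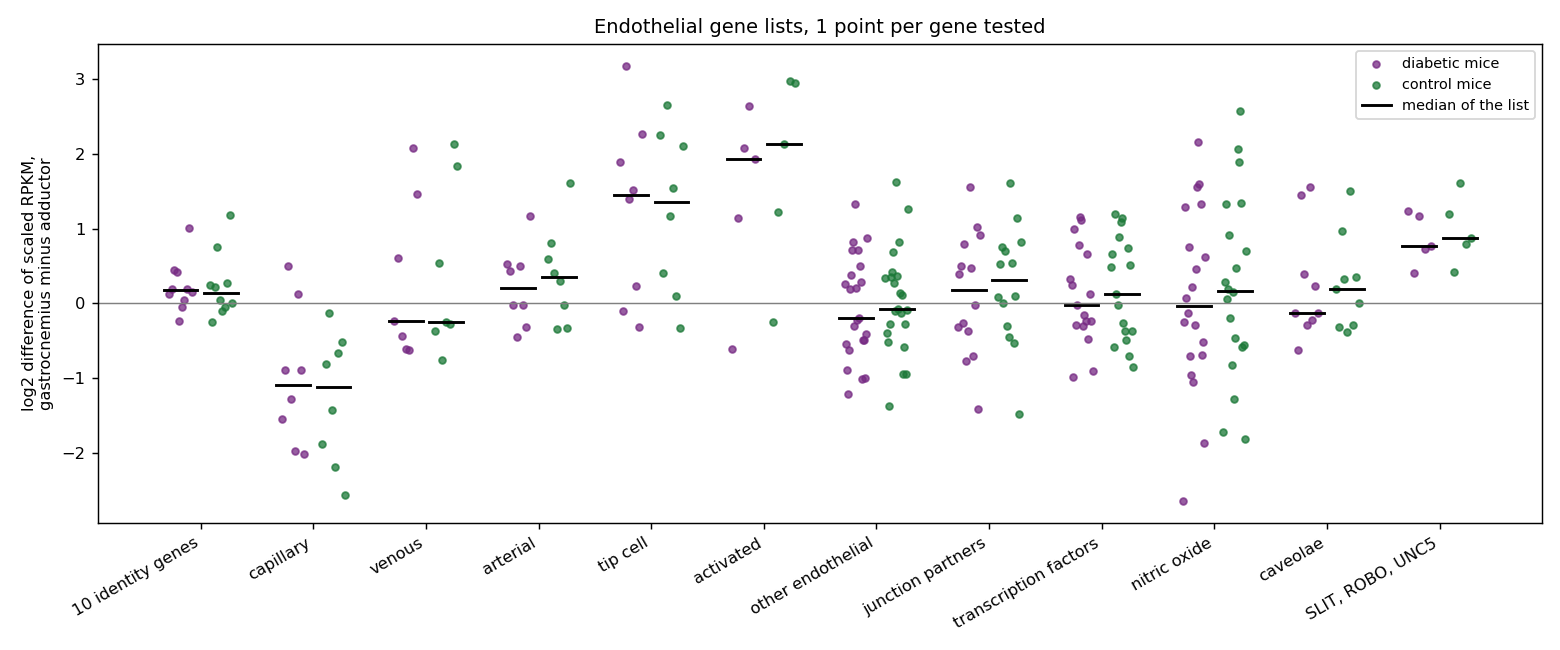
Log2 difference of scaled RPKM, gastrocnemius minus adductor (vertical axis), of every tested gene of the 10 members and of 11 other endothelial lists, 1 point per gene, with the list's median as a bar, for diabetic mice left of control mice. The 10 members sit near 0 (medians 0.17 and 0.13), the capillary list below it (-1.09 and -1.12) and the activated (1.94 and 2.14) and tip cell (1.46 and 1.36) lists above it.

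The partners of the 10 genes gave mixed counts on the same scale. Of 14 junction partners tested 7 were higher and 3 lower in diabetic mice, and 7 higher and 2 lower in control mice; Jam3, a junctional adhesion molecule, was higher by 1.56 and 1.62, Marveld2, a tight junction protein, by 0.91 and 0.82, Pvrl2, encoding nectin-2, by 1.03 and 1.14, and Ctnna1, the catenin that links cadherins to actin, by 0.50 and 0.75. Cd99l2, a CD99-like adhesion protein named after its values were seen, was lower on both scales (-1.41 and -1.48 scaled). Of 17 endothelial transcription factors 5 were higher and 2 lower in diabetic mice, and 8 higher and 3 lower in control mice; the share higher in diabetic mice was near that of all genes. Elk3, an ETS factor (0.99 and 1.20), Lmo2, a cofactor of blood and vessel development (1.12 and 1.14), Hhex, a homeobox factor (0.66 and 0.74), and Sox18, a SOX factor of vessels (0.78 and 0.89), were higher in both. Mef2c, a MADS-box factor that muscle fibres also express (-0.91 and -0.86), and Ets2, an ETS factor (-0.99 and -0.59), were lower in both; neither passed the test on deposited RPKM, where Ets2 had 0.19 in control mice, and both were named after their values were seen.

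Around Nos3, 7 of 20 nitric oxide genes were higher and 5 lower in diabetic mice, and 7 higher and 3 lower in control mice. Over all genes 27.4% were higher and 26.2% lower in diabetic mice, and 28.4% and 26.5% in control mice. The share of nitric oxide genes that were higher lay somewhat above these in both mouse groups, as did that of caveolar genes in diabetic mice. The remaining shares of both lists were near or below them, and no share was tested. Ddah1 and Ddah2, which degrade the inhibitor asymmetric dimethylarginine, were higher by 1.56 and 2.16 in diabetic mice and by 2.07 and 1.89 in control mice. Slc7a1, an arginine transporter, was higher by 1.33 and 1.35, and Nostrin, which binds endothelial nitric oxide synthase, by 1.29 and 1.33. Prkg1, the kinase that cyclic GMP activates, was lower on both scales (-1.87 and -1.82 scaled) and was named after its values were seen. Around Plvap, caveolar genes gave 3 higher and 1 lower of 9 in diabetic mice and 1 higher in control mice, with Prkcdbp, encoding cavin-3, higher in both (1.55 and 1.51). Cav1, the main caveolin of endothelium, had -0.13 and 0.19 (limma adjusted p = 0.62 and 0.47); Cav1 and Selp were named after their values were seen. Around Robo4, 4 of 5 genes of the SLIT, ROBO and UNC5 list were higher in each mouse group: Robo1 by 1.24 and 1.19, Unc5b, which binds ROBO4, by 1.17 and 1.61, and the ROBO effectors Srgap1 by 0.73 and 0.80 and Srgap2 by 0.77 and 0.87. No gene of these lists passed the test between diabetic and control mice in either muscle.

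Once the mean of each group within each library set was removed from the scaled log2 values of the 24 libraries, the members differed in how closely they followed the mean of the 10. Pearson's r was taken over 24 libraries that differ in depth, with the member itself in the mean. It was 0.80 for Nos3, 0.79 for Emcn, 0.74 for Egfl7 and Pecam1 and 0.71 for Robo4. For Cdh5 it was 0.09 and for Erg -0.08. Genes outside the list most like the mean were Cers4 (0.78), H2-K2 (0.77), Cracr2b (0.77) and Ccdc163 (0.76), and none of these 4 was on the list of other endothelial genes. These correlations are a description.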

How the data were processed

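Poly(A) RNA of 24 mouse muscle libraries, 4 groups of 6, had been sequenced. The authors deposited 1 table of RPKM for 33022 transcripts, made with HOMER on build mm9, per the file headers; TopHat is also named in the submitters' processing notes, and the headers give no strand setting. Labels name more than 1 sequencer model, and its relation to the library sets was not tested. The transcript of the highest mean RPKM was kept for each of 24016 symbols.

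The 12382 genes that reached 1 RPKM in 6 libraries or more were fitted with limma 3.58.1 (R 4.3.3) on log2(RPKM + 0.5) with a variance trend and 4 group means. Differences on this scale understate low genes. P-values are 2-sided and Benjamini-Hochberg adjusted over all genes within each of 5 contrasts, called at 0.05, and intervals are 95% limma intervals. Scaled RPKM is RPKM divided by a median-of-ratios size factor from 11682 genes above 0 in all libraries, and RPKM times length and total gave whole reads for 99.97% of values within 0.01, and Erg, Emcn and Nos3 rested on the fewest reads. Library sets were split at 100 RPKM of Gapdh.

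The 10 members and all lists were chosen with earlier results of these data known. Beside the members and Mir126a, the text names up to 4 genes of a list called in the muscle contrast of both mouse groups on both scales, by smallest p in control mice, and the 5 genes most like the members' mean, of which 1 is not reported here. Same-numbered gastrocnemius and adductor libraries of a mouse group deviated together over the pooled sets (r 0.25 to 0.74 over 12 pairs). Within the sets r was lower in most pairs, at -0.09 to 0.63, and no label gives the pairing. Their number was used as a block with these limits. Diabetic and control libraries of 1 number did not deviate together in every pair (-0.66 to 0.82, negative for number 4, whose libraries lie in different sets). Within the sets their r was -0.81 to 0.41. Alternatives were scaling, pseudocounts of 0.1 and 1, no filter, the longest transcript, limma-voom, terms for or restriction to a library set, blocks, leaving out each library, and leaving out the 2 that stood apart, which was added after seeing the data. The fit was tested on simulated data.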

Additional observations from a re-analysis of the deposited data

How the results depend on the processing

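Scaling was the choice that moved the counts of members called between the muscles: 9 became 1 in diabetic mice and 8 became 2 in control mice, and Esam (-0.054 in diabetic and -0.10 in control mice) and Nos3 (-0.049 in control mice) changed sign, as did Erg in diabetic mice (-0.24) and Cldn5 in control mice (-0.25), which passed on neither scale; the cause was not tested. With the second library set alone the count in diabetic mice was 5 on deposited RPKM, from fewer libraries, and with a term for the library set all 10 members were called in both mouse groups. On scaled values the count in diabetic mice was 1, and 2 with the first set alone, with the second set alone (Plvap higher, Erg lower), with the replicate number as a block and with mouse group and number as a block. The block of mouse group and number, a pairing that no label gives, also gave 10 called members in control mice on deposited RPKM and 3 on scaled values. With a term for the library set the counts on scaled values were 3 in control mice and 1 in diabetic mice. Leaving out 1 library at a time gave 8 to 9 called members in both mouse groups on deposited RPKM, 1 to 1 in diabetic and 1 to 2 in control mice on scaled values, and 0 to 0 in both diabetes comparisons and the difference of effects; the 1 came without control gastrocnemius 5. Without diabetic gastrocnemius 2 and control gastrocnemius 3 the counts were 9 and 8 on deposited RPKM and 1 and 2 on scaled values. Pseudocounts, the filter, the transcript chosen and limma-voom moved no count by more than 1.5 times. Depth limits Erg, Emcn and Nos3 most, and Mir126a cannot be compared.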
